A study of Mus musculus with 27 samples.

Results

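The mitochondrial protein import machinery was followed through the genes of its 2 sets of translocases, the TOM complex of the outer membrane and the TIM complexes of the inner membrane. The genes were selected by name, as the rows of the deposited count table whose symbol starts with Tomm or Timm followed by a digit, with pseudogenes left out. No measured value entered that rule, but the family was proposed after earlier results of these data were known, so its counts are given as a description. The rule found 27 rows with 26 symbols, 11 Tomm and 15 Timm, of 27304 genes. A test could be made for 23 of them. The other 4 rows, Tomm6, Tomm20l, Timm8a2 and the second of 2 rows named Timm10b, had at most 4 counts in every library. Tomm6 shares 76.0% of its exon bases with a gene model on the same strand (Gm21981, not analysed here), so its low count does not show its expression.

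RNA was sequenced from the hearts of 14 male C57BL/6J mice without apolipoprotein E (ApoE-/-), a strain background prone to high blood lipids that every group shared. A western diet was fed to all of them for 4 weeks. Mice with chronic kidney disease (CKD) then received adenine, which injures the kidney, at 0.3% for 10 days and at 0.15% for another 11 days, 4 before and 7 after myocardial infarction, while control mice stayed on the western diet. Pieces of infarct and of remote myocardium gave 6 control remote, 8 CKD remote, 6 control infarct and 7 CKD infarct libraries, and 13 mice gave both pieces. The mice's age and the way the infarct was made are not given in the sources used here.

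Nearly all mitochondrial proteins are made in the cytosol and threaded through these complexes. TOM receptors (TOM20, TOM22 and TOM70) bind the precursors and pass them to the TOM40 channel. From there, precursors with a presequence go to the TIM23 complex, whose motor pulls them into the matrix, and carrier proteins are escorted by small TIM chaperones to the TIM22 complex, which inserts them into the inner membrane. Heart muscle is rich in mitochondria, so cardiomyocytes are a main source of such transcripts in this tissue.

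The promoters of 6 members are shown because they belong to the genes on which the comparisons turn: Timm17a and Timm17b, alternative forms of 1 channel subunit that moved by unequal amounts, Timm10 and Tomm20, with the highest and one of the lowest log2 fold changes with CKD in the infarct, Tomm40, the outer channel, and Timm8b, whose promoter held 3 of the 5 motifs searched. Each is the 120 bases before the start of the gene in RefSeq (mouse build GRCm38.p6), 5′ to 3′ on the gene's strand, with capitals marking motif matches on either strand.
Timm17a (chr1:135313738-135313857, minus strand): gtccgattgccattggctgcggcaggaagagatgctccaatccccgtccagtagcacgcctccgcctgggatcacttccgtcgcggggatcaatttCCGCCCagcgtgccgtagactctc
Timm17b (chrX:7899216-7899335, plus strand): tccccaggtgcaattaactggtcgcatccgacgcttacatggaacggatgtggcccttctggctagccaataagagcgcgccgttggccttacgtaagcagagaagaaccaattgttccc
Timm10 (chr2:84826901-84827020, plus strand): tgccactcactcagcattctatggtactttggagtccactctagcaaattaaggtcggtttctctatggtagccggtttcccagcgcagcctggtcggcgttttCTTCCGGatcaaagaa
Timm8b (chr9:50603781-50603900, plus strand): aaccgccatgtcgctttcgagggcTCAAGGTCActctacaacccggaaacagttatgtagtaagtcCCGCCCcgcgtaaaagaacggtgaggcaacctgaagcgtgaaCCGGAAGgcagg
Tomm20 (chr8:126945922-126946041, minus strand): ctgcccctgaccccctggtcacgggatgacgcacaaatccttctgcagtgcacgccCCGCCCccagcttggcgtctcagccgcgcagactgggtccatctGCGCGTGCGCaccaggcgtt
Tomm40 (chr7:19715430-19715549, minus strand): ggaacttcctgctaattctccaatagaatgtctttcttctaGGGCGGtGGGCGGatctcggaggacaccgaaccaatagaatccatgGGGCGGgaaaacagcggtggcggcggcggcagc
Of the 22 tested members other than the antisense row Tomm6os, 19 had a promoter entry. In the 250 bases before the start, the GC box GGGCGG, bound by SP1, stood in 10 of 19 (52.6%) and in 32.7% of all 32851 promoters. The ETS site CCGGAAG, bound by GABPA, stood in 7 of 19 (36.8%: Timm10, Timm23, Timm29, Timm8b, Tomm22, Tomm34 and Tomm70a) and in 6.91% of all. The consensus site of NRF1 stood in 1 (Tomm20) and in 3.74% of all, and the ERR site TCAAGGTCA in 1 (Timm8b) and in 0.387% of all. The YY1 site AAGATGGCG stood in 0 of 19 and in 0.606% of all. Of the printed pair, Timm17a held a GC box and Timm17b held no match. A match describes letters in a window and shows no binding.

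The total count per library ran from 14255456 to 42566498. Levels are given as CPM, the count of a gene relative to its library total, with TMM factors, which set libraries on a common scale over most genes. Some libraries stood apart from the others of their label. The summed CPM of 12 cardiomyocyte markers was 126107 in the infarct library of CKD mouse 9179 and 94227 in that of CKD mouse 9172, and 32054 to 62906 in the other 5 CKD infarct libraries. The first of these lay above all 6 control remote libraries (52823 to 117728), and its summed fibroblast markers, at 905, lay below all 14 remote libraries. Control mouse 9180 had a fibroblast sum of 13209 in its remote piece, against 1166 to 4386 in the other 5. For mouse 9179 the title of the remote library says CKD and its treatment label says control, and it was used as CKD, with the other reading among the alternatives. In bulk tissue, fewer cells of a type and less RNA per cell cannot be told apart.

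Most import genes were high in remote myocardium, lower in the infarct of CKD mice and lowest in that of control mice. The 14 genes counted as inner membrane were the tested Timm members. They include small chaperones of the space between the membranes (Timm8a1, Timm8b, Timm9, Timm10 and Timm13). The mean log2 CPM of these 14 genes was 5.64 ± 0.18 (SD, n = 6) in control remote, 5.79 ± 0.10 (n = 8) in CKD remote, 4.66 ± 0.31 (n = 6) in control infarct and 5.38 ± 0.35 (n = 7) in CKD infarct libraries. Infarct against remote tissue of control mice, edgeR's quasi-likelihood test called 20 of 23 members at an adjusted p under 0.05, all lower, where it called 63.9% of all 14770 genes and 33.2% as lower. The median log2 fold change was -0.90 for members and -0.010 for all genes. In CKD mice 14 of 23 were called, all lower, against 45% of all genes and 20.2% as lower, with medians of -0.39 and -0.014. In the infarct, CKD against control, 15 of 22 were called, all higher, against 20.3% of all 14358 genes and 13.1% as higher, with medians of 0.65 and -0.017. In remote myocardium 0 of 23 were called, against 0.0216% of all 13902 genes, with medians of 0.13 and -0.0049. The comparisons share groups, the control infarct libraries in particular, so these counts are not independent of each other.

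**Figure D1:**
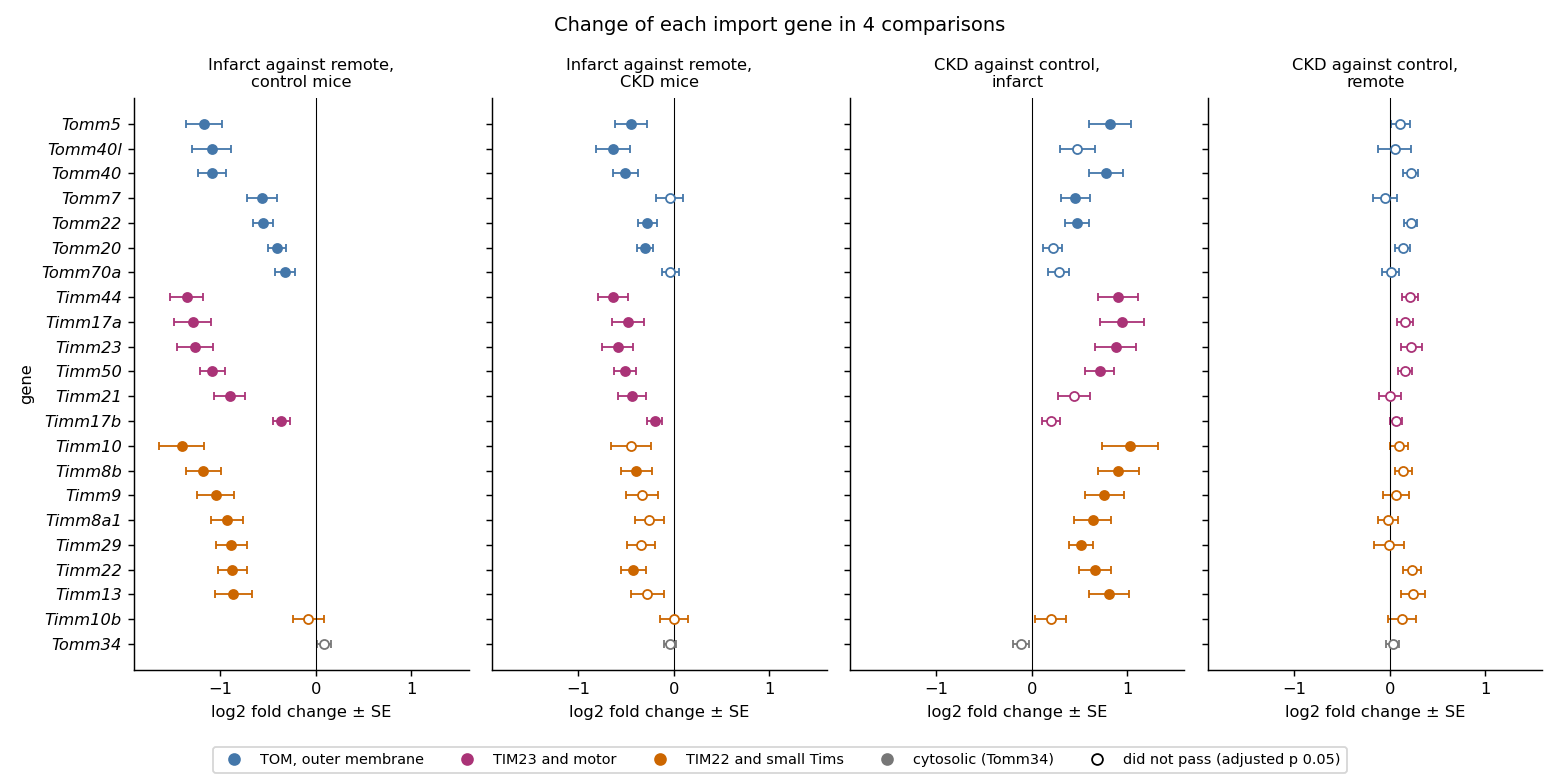
Log2 fold change ± standard error of the 22 tested Tomm and Timm members other than Tomm6os (vertical axis, grouped by complex) in 4 comparisons; filled points passed an adjusted p of 0.05 and open points did not. Filled points number 20, 13, 15 and 0 from left to right, and in the CKD panel Tomm6os, not drawn, brings the count to 14.

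The inner membrane genes had larger median changes than the outer membrane genes, a difference between lists that was not tested. In control mice, infarct against remote, 13 of 14 inner membrane members were called lower, and the median log2 fold change of the 14 was -0.99. Of the outer membrane members 7 of 7 were called lower, with a median of -0.57. Of all genes, 33.2% were called lower there. The ranges of infarct and remote libraries did not overlap for 13 inner and 4 outer membrane members, the infarct lying lower, as for 17.1% of all genes. In CKD mice 8 of 14 inner and 5 of 7 outer membrane members were called lower, against 20.2% of all genes. The medians were -0.41 and -0.30, with 13 inner and 7 outer membrane members below 0. No member's infarct libraries all lay below its remote libraries in CKD mice, where 1.07% of all genes had that separation. In the infarct, CKD against control, 11 of 14 inner and 4 of 7 outer membrane members were called higher, against 13.1% of all genes. The medians were 0.74 and 0.47, with 14 inner and 7 outer membrane members above 0. The ranges did not overlap for 7 inner and 3 outer membrane members, the CKD libraries lying higher, as for 5.25% of all genes.

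The balance of the outer and inner lists was also taken within each library. It is the mean log2 CPM of 7 outer minus that of 14 inner membrane genes, with the small chaperones among the latter. In remote libraries it was 0.52 ± 0.05 (SD, n = 6; 0.45 to 0.57) for control and 0.50 ± 0.05 (n = 8; 0.44 to 0.57) for CKD mice. It was 0.76 ± 0.08 (n = 6; 0.69 to 0.88) in control infarct and 0.57 ± 0.09 (n = 7; 0.46 to 0.70) in CKD infarct libraries. Every control infarct library thus lay above every remote library, and the CKD infarct libraries overlapped with those of each other group. The highest values, 0.88 and 0.86, were those of control infarct mice 9183 and 9171, whose cardiomyocyte marker sums (13222 and 4565) were the lowest of all libraries. No test was run on this score, which runs over members chosen with results known.

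**Figure D2:**
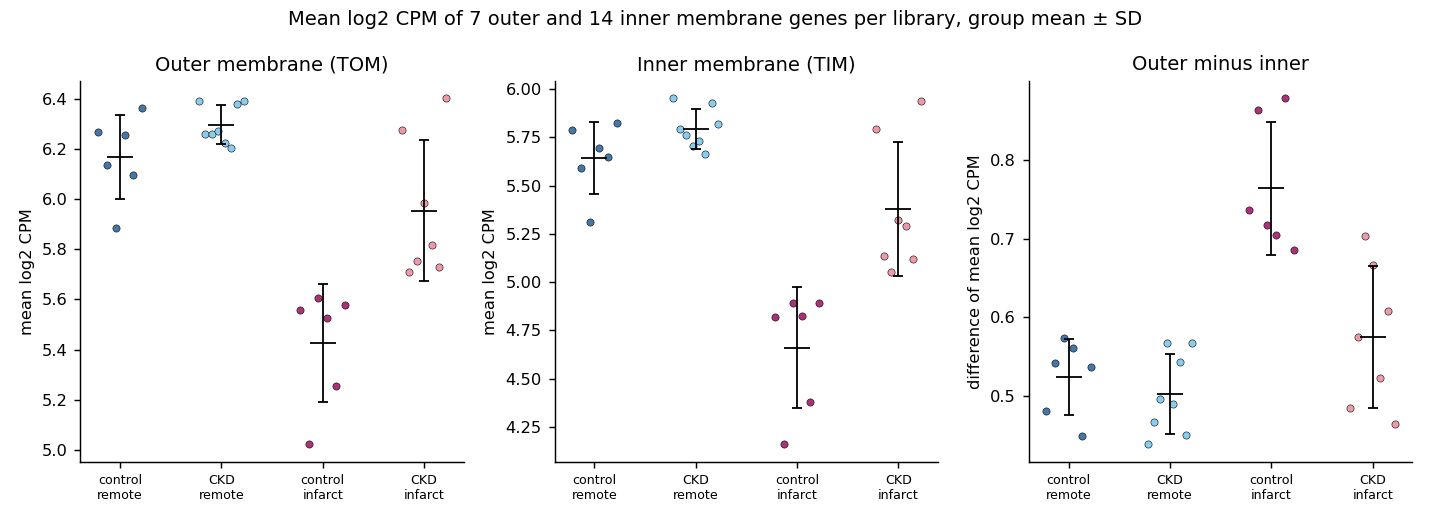
Mean log2 CPM of 7 outer membrane genes, of 14 inner membrane genes (the tested Timm members, small chaperones included) and their difference (vertical axes) in each library (points) of the 4 groups, with group mean ± SD (bars). Both means are lowest in control infarct tissue, and the difference there runs from 0.69 to 0.88, above the 0.44 to 0.57 of the remote libraries.

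Among the TOM receptors, Tomm20, which binds presequences, moved little. Its level was 94.8, 115 and 131 CPM in control remote libraries (lowest, median and highest), 112, 129 and 140 in CKD remote, 75.6, 86.0 and 96.0 in control infarct and 86.0, 102 and 129 in CKD infarct libraries. Infarct and remote ranges of control mice overlapped by 1 library on each side, the infarct of mouse 9184 and the remote piece of mouse 9180. Tomm20 fell by 0.41 (log2; SE 0.10, adjusted p = 0.000762) in the infarct of control mice, lower in 6 of 6 mice, and by 0.30 (SE 0.09, adjusted p = 0.00774) in that of CKD mice, lower in 7 of 7. CKD against control in the infarct it stood at 0.22 (SE 0.10, adjusted p = 0.118).

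Tomm70a, the receptor for carrier proteins, was 44.5, 50.8 and 58.1 CPM in control remote, 46.2, 51.3 and 64.1 in CKD remote, 34.9, 40.5 and 47.4 in control infarct and 43.1, 48.6 and 65.8 in CKD infarct libraries. The infarct of control mice lay low with some overlap, and the other 3 groups overlapped. Its log2 fold change was -0.32 (SE 0.10, adjusted p = 0.00894) in the infarct of control mice and -0.03 (SE 0.09, adjusted p = 0.777) in that of CKD mice. The third receptor, Tomm22, was 76.7, 82.0 and 92.5 CPM in control remote and 89.0, 98.9 and 105 in CKD remote libraries. Those ranges overlapped, and its remote log2 fold change of 0.22 (SE 0.07) had the lowest adjusted p of any member there, 0.281. In the infarct it ran from 44.9 to 64.4 CPM in control and from 68.2 to 111 CPM in CKD mice, with no overlap, and rose by 0.47 (SE 0.13, adjusted p = 0.0345).

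The channel gene Tomm40 showed a wide separation. It was 79.8, 96.9 and 113 CPM in control remote, 104, 116 and 130 in CKD remote, 30.4, 51.0 and 54.9 in control infarct and 62.8, 72.8 and 109 in CKD infarct libraries. Neither control infarct and control remote nor control infarct and CKD infarct ranges overlapped. Tomm40 fell 2.12-fold (log2 -1.09, SE 0.15, adjusted p = 9.98e-06) in the infarct of control mice and 1.42-fold (log2 -0.51, SE 0.13, adjusted p = 0.00414) in that of CKD mice, and was 1.71-fold higher (log2 0.78, SE 0.18, adjusted p = 0.0345) in CKD than in control infarct tissue. The gene lies next to Apoe in the RefSeq annotation, and Apoe is the locus altered in all 4 groups. Its paralog Tomm40l, a channel form of its own, was 14.01, 28.2 and 33.6 CPM in control remote, 22.5, 24.8 and 34.2 in CKD remote, 8.85, 12.9 and 13.3 in control infarct and 11.9, 15.2 and 24.5 in CKD infarct libraries. It fell by 1.09 (log2; SE 0.20, adjusted p = 7.64e-05) and 0.64 (SE 0.18, adjusted p = 0.00763) in the infarct of control and CKD mice, and the infarct groups overlapped, with 0.48 (SE 0.18, adjusted p = 0.0729) between them.

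The small TOM subunits, which stabilise the channel, were unlike each other. Tomm5 was 91.8, 113 and 130 CPM in control remote, 91.7, 126 and 145 in CKD remote, 30.8, 55.7 and 57.2 in control infarct and 64.9, 70.0 and 147 in CKD infarct libraries. The infarct groups did not overlap, and of the outer membrane members Tomm5 had the largest rise between them, 0.82 (log2; SE 0.22, adjusted p = 0.0345), and the largest fall from remote to infarct tissue of control mice, 1.17 (SE 0.19, adjusted p = 2.23e-05). Tomm7 was 58.6, 87.8 and 101 CPM in control remote, 66.3, 79.3 and 103 in CKD remote, 38.8, 57.7 and 64.7 in control infarct and 59.6, 73.9 and 109 in CKD infarct libraries. Control infarct and CKD remote ranges did not overlap and those of each other pair of groups did, with a fall of 0.57 (log2; SE 0.16, adjusted p = 0.00292) in the infarct of control mice, -0.04 (SE 0.14, adjusted p = 0.809) in that of CKD mice and a rise of 0.45 (SE 0.15, adjusted p = 0.0494) between the infarcts. Tomm34, a cytosolic co-chaperone that shares the name but sits in no membrane, ran from 23.2 to 31.4 CPM over all 27 libraries. It was called in no comparison, with log2 fold changes of -0.13 to 0.09.

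**Figure D3:**
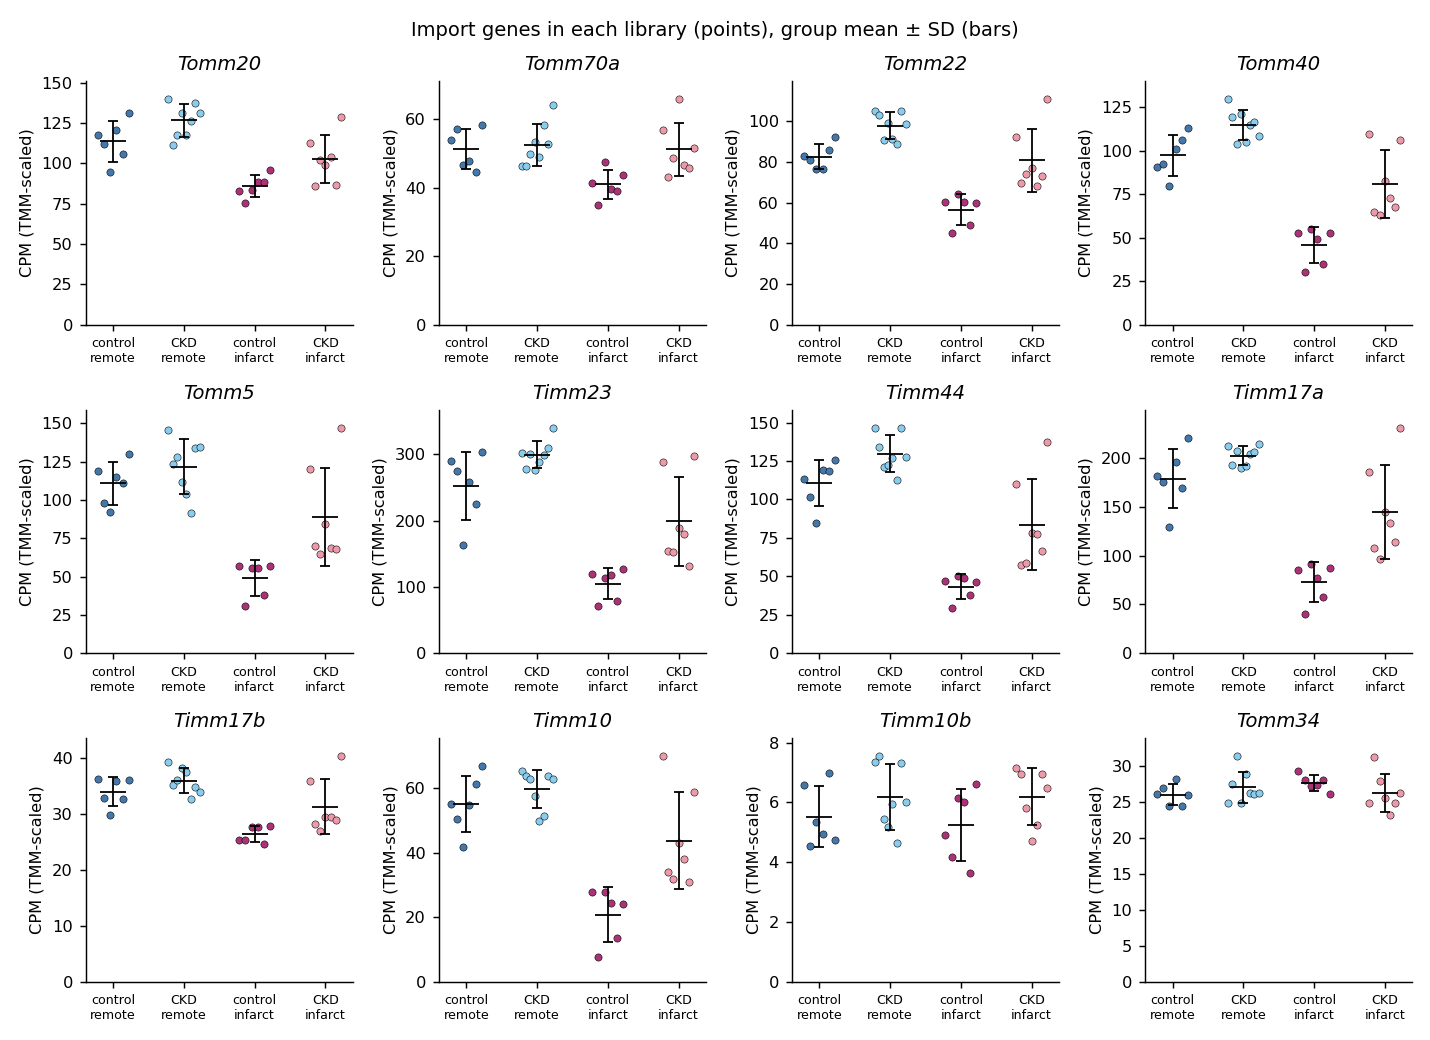
Level in CPM (vertical axes, from 0) of 12 members in each library (points) of the 4 groups, with group mean ± SD (bars). Tomm40, Tomm5, Timm23, Timm44, Timm17a and Timm10 are lowest in control infarct tissue with no overlap with CKD infarct tissue, whereas the control and CKD infarct groups of Timm17b, Timm10b and Tomm34 overlap.

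In the TIM23 complex, 6 of 6 members were called lower in the infarct of control and of CKD mice, with median log2 fold changes of -1.18 and -0.50. Of all genes, 33.2% and 20.2% were called lower there. Timm23, the channel itself, was 163, 266 and 304 CPM in control remote, 276, 299 and 340 in CKD remote, 71.8, 116 and 128 in control infarct and 131, 180 and 297 in CKD infarct libraries. The infarct groups did not overlap, though the highest control library lay close to the lowest CKD library, and Timm23 was 1.84-fold higher in CKD (log2 0.88, SE 0.21, adjusted p = 0.0345). Timm44, which tethers the motor to the channel, was 84.8, 116 and 126 CPM in control remote, 113, 127 and 147 in CKD remote, 29.5, 46.5 and 50.5 in control infarct and 57.4, 77.8 and 137 in CKD infarct libraries. It had the largest fall of this complex in control mice, 2.55-fold (log2 -1.35, SE 0.17, adjusted p = 9.45e-06), seen in 6 of 6 mice, and in CKD mice, 1.55-fold (log2 -0.64, SE 0.15, adjusted p = 0.00255), seen in 6 of 7. Timm50, the receptor that takes over precursors from TOM, rose by 0.71 (log2; SE 0.15, adjusted p = 0.0345) in CKD infarct tissue. Timm21, which links TIM23 to the respiratory chain, was 11.8, 16.6 and 18.7 CPM in control infarct and 16.96, 19.5 and 31.2 in CKD infarct libraries, which overlapped (log2 0.44, SE 0.17, adjusted p = 0.074). In remote tissue its control and CKD medians were 29.01 and 29.03 CPM (log2 0.0020, SE 0.11, adjusted p = 0.997).

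Timm17a and Timm17b encode alternative forms of a subunit that lines the TIM23 channel, and they moved by unequal amounts. Timm17a was 129, 179 and 220 CPM in control remote, 190, 205 and 214 in CKD remote, 40.4, 81.1 and 91.3 in control infarct and 96.6, 134 and 231 in CKD infarct libraries. Timm17b was 29.9, 34.4 and 36.3 CPM in control remote, 32.6, 35.6 and 39.3 in CKD remote, 24.5, 26.5 and 27.8 in control infarct and 26.9, 29.4 and 40.3 in CKD infarct libraries. For Timm17a the infarct groups did not overlap, and for Timm17b they did. Timm17a fell by 1.29 (log2; SE 0.19, adjusted p = 1.42e-05) and Timm17b by 0.36 (SE 0.09, adjusted p = 0.00075) in the infarct of control mice. In the infarct of CKD mice the falls were 0.48 (SE 0.17, adjusted p = 0.0239) and 0.20 (SE 0.08, adjusted p = 0.0345). CKD against control in the infarct, Timm17a rose by 0.94 (SE 0.23, adjusted p = 0.0345) and Timm17b stood at 0.20 (SE 0.09, adjusted p = 0.13).

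The 3 paralog pairs tested here and below belong to the members chosen with results known, so the p-values on their ratios are a description. The log2 ratio of Timm17a to Timm17b within a library does not depend on scaling. In remote libraries it was 2.38 ± 0.16 (SD, n = 6) for control and 2.49 ± 0.13 (n = 8) for CKD mice, and 1.41 ± 0.41 (n = 6; 0.67 to 1.74) in control infarct and 2.16 ± 0.25 (n = 7; 1.85 to 2.52) in CKD infarct libraries. The infarct groups did not overlap, a difference of 0.75 (exact two-sided permutation p = 0.00117, the smallest that 7 against 6 libraries allow; adjusted p = 0.0175 over 15 tests of 3 ratios). The ratio fell from remote to infarct tissue in 6 of 6 control mice by 0.97 (exact sign-flip p = 0.0312, the smallest for 6 mice; adjusted p = 0.0656) and in 7 of 7 CKD mice by 0.34 (exact p = 0.0156; adjusted p = 0.0586), neither of which passed after adjustment. The difference of these falls, 0.63, did not pass either (exact permutation p = 0.0117, adjusted p = 0.0583), and passed without mouse 9180 (0.75, exact permutation test, adjusted p = 0.0126). With CKD mice 9172 and 9179 left out, the infarct difference was 0.64 with no overlap, and its exact permutation p was the smallest that 5 against 6 libraries allow, which adjustment takes to 0.0649. The lowest ratios, 0.67 and 1.22, were those of control infarct mice 9171 and 9183, which had the lowest cardiomyocyte marker sums of all libraries. The highest infarct ratios, 2.52 and 2.37, were those of CKD mice 9179 and 9172, which had the highest sums in the infarct. The part of the marker level in the ratio was not tested.

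The ratio of Tomm40 to Tomm40l was 1.94 ± 0.12 (SD, n = 6) in control infarct and 2.27 ± 0.15 (n = 7) in CKD infarct libraries, a difference of 0.33 (exact permutation p = 0.00233, adjusted p = 0.0175). Their ranges, 1.78 to 2.09 and 2.07 to 2.50, touched at 1 library on each side. In remote libraries the ratio spread more widely, 2.02 ± 0.49 (n = 6) in control and 2.14 ± 0.31 (n = 8) in CKD mice, and did not differ beyond that spread (exact permutation p = 0.571, adjusted p = 0.612). Without CKD mice 9172 and 9179 the infarct difference was 0.35 (exact permutation test, adjusted p = 0.0649), in the same small design. Of the exon bases of Tomm40l, 64.3% lie opposite Nr1i3, which had 50 counts over all libraries. The ratio of Timm8a1 to Timm8b was -1.53 ± 0.13 (SD, n = 6) in control remote, -1.68 ± 0.09 (n = 8) in CKD remote, -1.27 ± 0.19 (n = 6) in control infarct and -1.53 ± 0.19 (n = 7) in CKD infarct libraries. It was lower in CKD by 0.15 in remote and 0.26 in infarct tissue (exact permutation p = 0.026 and 0.035), which did not pass after adjustment (adjusted p = 0.0656 for both). The remote difference passed without the remote library of control mouse 9183 (-0.18).

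**Figure D4:**
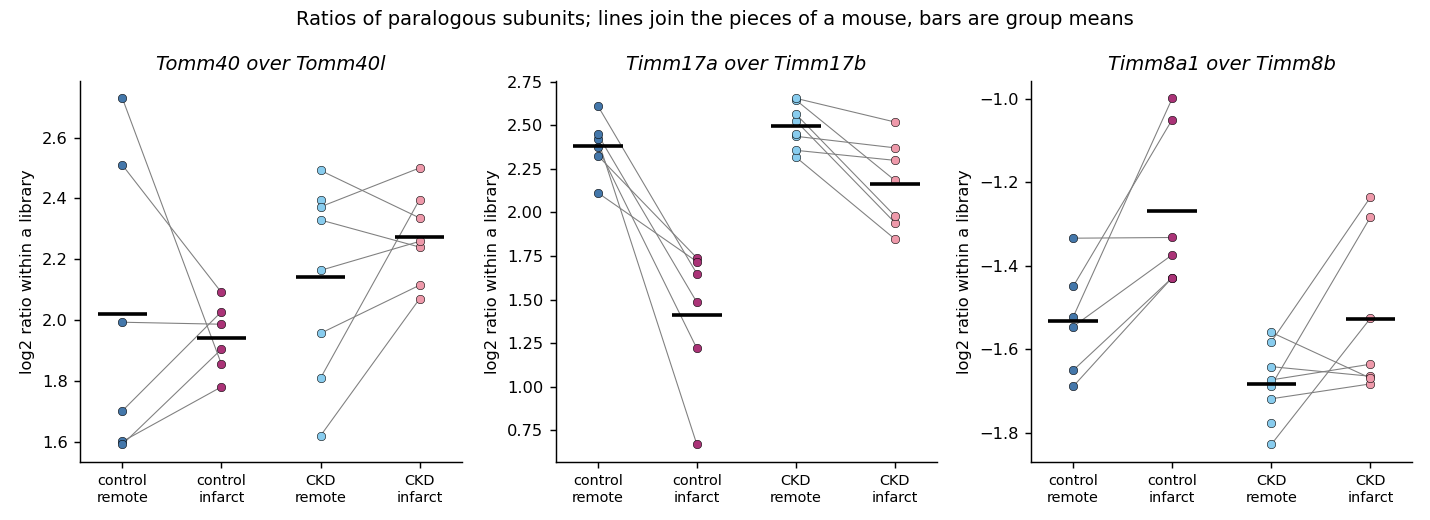
Log2 ratio within a library (vertical axes) of 3 pairs of related subunits in each group; thin lines join the remote and infarct pieces of a mouse and bars are group means. The line of Timm17a over Timm17b falls in each of 6 control and 7 CKD mice, to a mean of 1.41 in control and 2.16 in CKD infarct tissue.

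In the TIM22 branch, 7 of 8 tested members were called lower in the infarct of control mice. In that of CKD mice 2 of 8 (Timm22 and Timm8b) were called lower, with 7 of 8 below 0. In CKD against control infarct tissue 7 of 8 were called higher. Of all genes, 33.2%, 20.2% and 13.1% were called in these directions. Timm10, a small chaperone that escorts carriers across the space between the membranes, was 41.8, 55.1 and 66.9 CPM in control remote, 50.0, 62.9 and 65.2 in CKD remote, 7.55, 24.2 and 27.9 in control infarct and 30.9, 37.9 and 70.0 in CKD infarct libraries. The lowest value was that of control mouse 9171, and the infarct groups did not overlap. Timm10 had the largest change of any member in both comparisons, a 2.65-fold fall in the infarct of control mice (log2 -1.40, SE 0.24, adjusted p = 3.26e-05) and a 2.04-fold rise with CKD in the infarct (log2 1.03, SE 0.30, adjusted p = 0.0362). In CKD mice its infarct stood at -0.45 against remote tissue (SE 0.21, adjusted p = 0.0805). Timm9, the partner of Timm10 in the chaperone ring, rose by 0.76 in CKD infarct tissue (log2; SE 0.20, adjusted p = 0.0345).

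Timm8a1 and Timm8b belong to a second kind of ring, completed by Timm13, and Timm8a1 is the mouse gene of a human deafness and dystonia syndrome. Timm8a1 was 18.1, 23.3 and 30.7 CPM in control remote, 20.3, 23.2 and 27.9 in CKD remote, 7.73, 13.4 and 17.4 in control infarct and 15.3, 17.5 and 26.4 in CKD infarct libraries. Timm8b was 56.7, 69.3 and 77.3 CPM in control remote, 64.6, 77.8 and 90.5 in CKD remote, 16.01, 34.2 and 37.1 in control infarct and 41.2, 52.6 and 84.7 in CKD infarct libraries. The infarct groups overlapped for Timm8a1 and not for Timm8b. The rise with CKD in the infarct was 0.64 for Timm8a1 (log2; SE 0.19, adjusted p = 0.0376) and 0.91 for Timm8b (SE 0.22, adjusted p = 0.0345). Of the exon bases of Timm8b, 15.6% lie opposite Nkapd1, and the strand setting of the counts is not given in the sources used here. Timm13 was 46.1, 52.0 and 59.3 CPM in control infarct and 68.4, 79.2 and 185 in CKD infarct libraries, the highest being that of mouse 9179 (log2 0.81, SE 0.21, adjusted p = 0.0345). It also had the highest log2 fold change among the inner membrane members in remote tissue, 0.24 (SE 0.13, adjusted p = 0.469).

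Timm22, the insertion channel, rose by 0.66 (log2; SE 0.17) and Timm29, its partner, by 0.51 (SE 0.13) in CKD infarct tissue, both with an adjusted p of 0.0345. Timm10b, the chaperone docked on that channel, did not follow. It was 4.54, 5.15 and 7.00 CPM in control remote, 4.63, 5.98 and 7.55 in CKD remote, 3.63, 5.46 and 6.61 in control infarct and 4.71, 6.47 and 7.16 in CKD infarct libraries. The 4 ranges overlapped, with log2 fold changes of -0.08 (SE 0.16, adjusted p = 0.685) in the infarct of control mice, 0.0034 (SE 0.15, adjusted p = 0.987) in that of CKD mice and 0.20 (SE 0.16, adjusted p = 0.366) between the infarcts. Of its exon bases, 7.73% lie opposite Arfip2, which had 20664 counts over all libraries against 3436 for Timm10b. Tomm6os, an antisense RNA of the Tomm6 locus with at most 18 counts in a library, fell by 0.85 (log2; SE 0.33, adjusted p = 0.0366) in the infarct of CKD mice and was not tested between the infarcts.

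In remote myocardium the log2 fold changes of the 22 members other than Tomm6os ran from -0.05 for Tomm7 to 0.24 for Timm13, with control and CKD ranges overlapping for each of them. At an unadjusted p under 0.05 stood 5 of 23 members and 1626 of 13902 genes. DESeq2 called 1 of 23, Tomm22 (log2 0.23, adjusted p = 0.048), where it called 0.698% of all genes, and limma-voom called 0, against 0.036%. Whether CKD acted on the infarct differently from remote tissue was tested as an interaction. Of 23 members 0 were called, as were 0% of all 14770 genes, with 16 members and 2787 genes at an unadjusted p under 0.05. For the 21 members of the membrane complexes the differences ran from 0.08 for Timm10b (adjusted p = 0.881) to 0.96 for Timm10 (adjusted p = 0.165). Tomm34 (-0.13, adjusted p = 0.489) and Tomm6os (-0.38, adjusted p = 0.73) stood below 0. The median of the 23 was 0.55, against 0.057 for all genes. DESeq2 called 7 members (Timm10, Timm17a, Timm44, Timm50, Timm8b, Tomm40 and Tomm5, adjusted p = 0.0453 to 0.0473) and 4.06% of all genes, and limma-voom called 0 members and 0.0406% of all genes.

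The infarct calls lay close to the threshold. The count of 15 was 0 without CKD mouse 9172 or 9177 or control mouse 9171, 9182 or 9183, as it was for all genes in those fits, while the members' median stayed at 0.57 to 0.68. It was also 0 without CKD mice 9172 and 9179 together, as for all genes, and the members' median there was 0.43. The fall in the infarct of control mice kept 20 calls in each fit that left out 1 library, where 59.2% to 66.2% of all genes were called. In CKD mice that count ranged from 8 to 18, with 8 without the infarct library of mouse 9174, 9175 or 9178 and 9 without that of mouse 9177. Of all genes, 33.8% to 35.8% were called in the fits with 8, 40.5% in the fit with 9 and 56.9% in the fit with 18, which left out the infarct library of mouse 9179.

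The group with the lowest cardiomyocyte markers, control infarct tissue, was also the one where most import genes were lowest. The summed CPM of its 12 markers was 4565 to 32158 in control infarct, 32054 to 126107 in CKD infarct, 52823 to 117728 in control remote and 93537 to 125978 in CKD remote libraries. In the infarct 7 of 12 markers were called higher with CKD, with the 12 log2 fold changes at 0.91 to 2.09. Their median was 1.53, beside 0.65 for the import members. From remote to infarct tissue 12 of 12 were called lower in control mice (median -2.15). In CKD mice 3 of 12 were called lower (median -0.85), with the 12 log2 fold changes at -1.06 to -0.36. In remote tissue 0 of 12 were called with CKD (median 0.23). Of all genes, 13.1% were called higher with CKD in the infarct, and 33.2% and 20.2% were called lower in the infarct of control and CKD mice. The share of counts from the protein genes of the mitochondrial genome was 4.98% ± 2.24 (SD, n = 6) in control infarct, 11.9% ± 5.03 (n = 7) in CKD infarct, 17.99% ± 3.24 (n = 6) in control remote and 18.7% ± 2.33 (n = 8) in CKD remote libraries. With the mean log2 CPM of the cardiomyocyte markers as a covariate, 0 of 22 members and 0 genes of the whole table were called in the infarct, with a members' median of 0.16. In the infarct of control mice 0 of 23 were called (median -0.21), again with 0 genes of the whole table, and in that of CKD mice 3 of 23 beside 15.3% of all genes, namely Timm44 (log2 -0.36, adjusted p = 0.0198), Timm50 (-0.30, adjusted p = 0.0197) and Tomm40 (-0.24, adjusted p = 0.0415). A change in the number of cardiomyocytes and a change per cell cannot be told apart in these data.

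Of 22 genes that work with the translocases, 17 were called higher in CKD against control infarct tissue (median 0.75), against 13.1% of all genes. In the infarct of control mice 20 were called lower (median -1.04), against 33.2% of all genes. In that of CKD mice 15 were called lower (median -0.43), against 20.2%. In remote tissue and for the difference of the CKD effect 0 were called (medians 0.14 and 0.61). In the import motor and its regulators 7 of 7 were called higher with CKD in the infarct. Among them were Dnajc19 (log2 0.80, SE 0.19), Grpel1 (0.78, SE 0.19) and Dnajc15 (1.06, SE 0.27), partners of mitochondrial Hsp70. The outer membrane assembly genes Mtx2 (0.72, SE 0.18) and Samm50 (1.02, SE 0.27) were called higher, 2 of 4. Of oxidative folding, Aifm1 (0.81, SE 0.17) and Chchd4 (0.78, SE 0.18) were called higher, 2 of 3. Of presequence processing 5 of 6 were called higher. Among them were Pmpcb (0.72, SE 0.18), which cleaves presequences, Mipep (1.01, SE 0.28) and Immp2l (1.30, SE 0.39). The insertase Oxa1l (0.71, SE 0.14) was called higher as well. Agk, the lipid kinase that is also a TIM22 subunit, stood at 0.12 (SE 0.12, adjusted p = 0.435) there and at -0.18 (SE 0.13, adjusted p = 0.217) in the infarct of control mice, so that 2 partners of the carrier channel, Agk and Timm10b, passed in neither. The other 4 that were not called in the infarct, named after their values were seen, were Mtx1 (0.29), Mtx3 (-0.15), Gfer (0.19) and Xpnpep3 (0.20).

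The proteins that these complexes import include most of the respiratory chain. In CKD against control infarct tissue 15 of 15 oxidative phosphorylation genes were called higher, with a median of 1.41. Among them were Sdha (1.16, SE 0.29), Ndufa9 (1.31, SE 0.33) and Ndufb8 (1.42, SE 0.36). In the infarct of control mice 15 of 15 were called lower, with a median of -1.97. Over all genes, 13.1% were called higher in the first comparison and 33.2% were called lower in the second. Of 5 genes of mitochondrial mass 4 were called higher with CKD in the infarct (median 0.84), with Cs, citrate synthase, at 1.29 (SE 0.30). Of 6 genes of matrix folding and proteolysis 4 were called higher (median 0.69), with Lonp1, a matrix protease, at 0.75 (SE 0.19). These medians stand beside 0.65 for the import members, and no test between lists was run.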

How the data were processed

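RNA of 27 mouse heart libraries was sequenced by the authors, and whole-number counts per gene were deposited for 27304 genes. The submitters' processing notes name GRCm39 as the build and kallisto 0.48.0 as a tool; the annotation, the step from transcripts to genes and the strand setting are not given in the sources used here. Groups came from the titles. The test was edgeR's quasi-likelihood F test (version 4.0.16, R 4.3.3) after filterByExpr and TMM scaling, with Benjamini-Hochberg adjustment over all genes tested and 0.05 as threshold. The standard error (SE) of a log2 fold change was derived from that test, as its absolute value divided by the square root of F. The CKD effect was fitted on the libraries of 1 region, and the other contrasts came from 4 group means over 27 libraries. DESeq2 1.42.0 and limma 3.58.1 served as alternatives, and the fit was tested on simulated data. Exact tests were run on paralog ratios of log2 CPM (prior count 0.5).

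Members and lists were chosen with earlier results of these data known. Values are given for the paralog pairs and for the highest and lowest log2 fold change of each class and comparison, and up to 3 genes by smallest p of each other list. The lists were import partners, matrix folding, mitochondrial mass, oxidative phosphorylation and cell type markers (87 of 88 listed genes found). In the infarct of control mice the fibroblast, macrophage, endothelial, erythroid and atrial lists had median log2 fold changes of 2.91, 2.15, -0.78, -1.63 and -5.65, and with CKD in the infarct -1.14, -0.41, 0.13, -0.52 and 3.14. Of 5 atrial markers, 4 and 3 were tested there, and single libraries stood high. Their mean log2 CPM was 5.14 and 4.72 in control remote mice 9170 and 9171, where the group median was 0.85. In CKD remote mice 9172, 9173, 9174 and 9176 it was 4.54, 4.29, 5.69 and 5.20. The other CKD remote libraries ran from -0.38 to 2.16, and that group's median was 3.23. In the CKD infarct it was 6.03 in mouse 9179, where the group median was 1.26. Exon overlaps and promoters came from GENCODE M21 and RefSeq, both of GRCm38, and were used for no count.

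No library was a copy of another of its group, since chi-square per degree of freedom was at least 9.18 in 79 pairs within groups. Pairs of libraries from different groups were not compared in this way. Infarct and remote pieces share a mouse by design; residuals of the 13 pairs correlated at -0.08 to 0.35 (median 0.16), and at -0.02 between mice. Libraries were taken as 1 mouse piece each. In the CKD fits on a single region each mouse gave 1 library, so those p-values measure the spread between mice. The main contrasts fitted on all 27 libraries took the pieces of a mouse as independent. Their p-values measure the spread between libraries of a group. The sign-flip tests on ratios used the differences within mice.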

Additional observations from a re-analysis of the deposited data

Results flagged for a closer look

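Of 92 groups of a member examined for a single sample far from the others, 1 stood out, where chance alone gives about 1 in 20 groups. Tomm7 was 38.8 CPM in the infarct library of control mouse 9171, and the next lowest of the 6 control infarct libraries stood at 54.2 CPM. That library also had the lowest cardiomyocyte marker sum of all, 4565 CPM. The part of the marker level in the Tomm7 value was not tested.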

How the results depend on the processing

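The infarct count of 15 members was 12 to 17 without single libraries other than the 5 named above, so 0 to 17 in all. In the fits with 12 to 17, 11.5% to 32.6% of all genes were called. The count was 0, as for all genes, both with the cardiomyocyte covariate and without CKD mice 9172 and 9179. In the other 7 alternatives it was 13 to 20, beside 9.26% to 34.3% of all genes. The count of 20 in the infarct of control mice was 0 with the covariate, as for all genes. The count of 14 in CKD mice was 3 with it, beside 15.3% of all genes. Without single libraries it was 8 to 18, beside 33.8% to 56.9% of all genes. DESeq2 called 1 member in remote tissue and 7 for the difference of the CKD effect, where the counts were 0, beside 0.698% and 4.06% of all genes. The cause was not tested. With the mouse number as a replicate block, the paired fits called 20 and 16 members in the infarct of control and CKD mice, beside 66.1% and 48.8% of all genes. For the difference they called 0 members and 0 genes, so pairing moved no member count by over 1.5 times.

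Among the paralog ratios, leaving out CKD mice 9172 and 9179 gave infarct differences of 0.35 for Tomm40 over Tomm40l and 0.64 for Timm17a over Timm17b that did not pass, in a design of 5 against 6 libraries where the smallest possible exact p, reached by the second, misses the threshold unless several ratios reach it. Reading mouse 9179 as control in remote tissue, Timm8a1 over Timm8b passed in remote tissue (-0.17). Without single libraries, it ranged there from -0.18 to -0.11, the difference of the CKD effect on Timm17a over Timm17b from 0.48 to 0.75, and Tomm40 over Tomm40l in the infarct of control mice from -0.16 to 0.079.

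Signs were followed for the paralog pairs and for the highest and lowest log2 fold change of each class and comparison, not for every member. Among those followed, some members changed sign. With the covariate this included values that were not near 0, such as Timm10 (-0.45) and Timm8a1 (-0.25) in the infarct of CKD mice and Tomm40l with CKD in the infarct (0.48) and for the difference (0.45). With it, Timm10 (0.042), Timm8a1 (0.058) and Tomm70a (0.064) stood above 0 in the infarct of CKD mice, Timm10b at 0.28 in that of control mice, Timm10b (-0.048) and Tomm40l (-0.010) below 0 with CKD in the infarct, Timm21 (-0.16) and Tomm40l (-0.17) below 0 in remote tissue, and Timm10b (-0.12), Timm17b (-0.016), Tomm20 (-0.088) and Tomm40l (-0.060) below 0 for the difference. With limma-voom, Timm10b stood at -0.0070 for the difference, -0.0027 in the infarct of CKD mice and 0.0043 in that of control mice, and Timm21 (-0.11) and Tomm40l (-0.038) below 0 in remote tissue. With mouse 9179 read as control, Timm10b (-0.0014) and Tomm70a (0.012) turned in the infarct of CKD mice and Timm21 (-0.094) in remote tissue. Upper-quartile scaling gave Timm21 -0.0043, the fit of 27 libraries gave Timm8a1 0.00069, both in remote tissue, and without the 3 libraries that stood apart Timm10b was -0.058 in the infarct of CKD mice. Without single libraries, Timm10b ranged from -0.0060 to 0.16 for the difference, -0.049 to 0.062 in CKD and -0.15 to 0.0094 in control mice, Tomm70a from -0.11 to 0.011 in CKD mice, and in remote tissue Timm21 from -0.073 to 0.080, Timm8a1 from -0.076 to 0.059, Tomm40l from -0.061 to 0.15 and Tomm7 from -0.14 to 0.0090. The effect of sequencing depth was not tested.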
